A study of Rattus norvegicus with 30 samples.

Results

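The aryl hydrocarbon receptor (AHR) and 7 genes that it is known to switch on were followed in rat lung. The 8 genes were found by their symbols among 22914 genes with deposited counts: Ahr, Ahrr, Cyp1a1, Cyp1a2, Cyp1b1, Tiparp, Nqo1 and Aldh3a1. They were chosen for what they are known to do and because emodin, one of the drugs given, is a planar anthraquinone. Earlier results of these data were known when the choice was made. Of the 8 genes, 7 had enough reads to be tested and Cyp1a2 did not. The files list them as ENSRNOG00000004342 (Ahr, chromosome 6), ENSRNOG00000014721 (Ahrr, chromosome 1), ENSRNOG00000019500 (Cyp1a1, chromosome 8), ENSRNOG00000016173 (Cyp1a2, chromosome 8), ENSRNOG00000040287 (Cyp1b1, chromosome 6), ENSRNOG00000011238 (Tiparp, chromosome 2), ENSRNOG00000012772 (Nqo1, chromosome 19) and ENSRNOG00000002331 (Aldh3a1, chromosome 10).

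AHR is a transcription factor that waits in the cytoplasm with the chaperones HSP90 and p23. When a flat aromatic molecule binds it, it enters the nucleus, pairs with ARNT and binds the core letters GCGTG near its target genes. Cyp1a1, Cyp1a2 and Cyp1b1 encode cytochromes P450 that oxidise such ligands, Ahrr encodes a repressor that competes for ARNT, and Tiparp encodes an ADP-ribosyltransferase that marks AHR for degradation. Nqo1, a quinone reductase, and Aldh3a1, an aldehyde dehydrogenase, complete the classic battery, and Nqo1 is also a target of NRF2. In lung, Cyp1a1 is known for its rise after smoke and other aromatic hydrocarbons.

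The 30 libraries, 3 in each of 10 groups, were made from polyadenylated RNA of lungs of male Sprague Dawley rats, 8 weeks old. Per the study's methods, 3 rats of each group were taken for sequencing, so the spread within a group is that between animals. Sham rats had the pancreas moved (Sham-6h, Sham-24h), and Con rats received saline in the biliopancreatic duct (Con-6h, Con-24h). Rats with severe acute pancreatitis (SAP) received 5% sodium taurocholate in that duct and either vehicle (SAP-6h, SAP-24h), dexamethasone at 10 mg/kg into a vein (DEX-6h, DEX-24h) or emodin into the stomach (Emo-6h, Emo-24h). The labels give the emodin dose as 10 mg/kg in one place and 40 mg/kg in another, and drugs were given at 2 h and, per the protocol, again at 12 h, so that the 6 h lungs had 1 dose. All rats were fasted, anaesthetized with pentobarbital and operated on, and rats without a drug received its vehicle. Whole lung was sequenced, so fewer cells of a type and less RNA per cell cannot be told apart.

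Promoter sequence was at hand in RefSeq (rat assembly GRCr8, not the build used for the counts) for 6 of the 8 genes: Ahr, Ahrr, Cyp1a2, Cyp1b1, Tiparp and Nqo1. Cyp1a1 and Aldh3a1 were not matched. The 250 bases before the gene start are printed, 5′ to 3′ in the direction of the gene, for the receptor and for the 4 genes with a match to the AHR core. The core GCGTG and its reverse complement CACGC are in capitals, so that a reader can see how unequally the letters are spread over these windows. The windows are chr6:57998902-57999151 (minus strand) for Ahr, chr1:30821969-30822218 (plus) for Ahrr, chr6:21094315-21094564 (plus) for Cyp1b1, chr2:152063519-152063768 (plus) for Tiparp and chr19:52220268-52220517 (minus) for Nqo1.
Ahrr: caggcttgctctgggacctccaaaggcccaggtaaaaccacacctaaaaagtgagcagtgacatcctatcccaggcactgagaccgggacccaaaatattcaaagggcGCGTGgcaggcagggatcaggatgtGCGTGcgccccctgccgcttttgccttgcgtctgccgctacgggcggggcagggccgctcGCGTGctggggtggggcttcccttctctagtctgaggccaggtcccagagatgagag
Cyp1b1: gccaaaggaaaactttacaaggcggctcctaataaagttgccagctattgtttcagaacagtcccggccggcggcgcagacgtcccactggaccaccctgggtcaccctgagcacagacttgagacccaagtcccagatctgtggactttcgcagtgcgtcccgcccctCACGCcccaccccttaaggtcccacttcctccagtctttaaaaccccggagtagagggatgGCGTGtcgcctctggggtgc
Tiparp: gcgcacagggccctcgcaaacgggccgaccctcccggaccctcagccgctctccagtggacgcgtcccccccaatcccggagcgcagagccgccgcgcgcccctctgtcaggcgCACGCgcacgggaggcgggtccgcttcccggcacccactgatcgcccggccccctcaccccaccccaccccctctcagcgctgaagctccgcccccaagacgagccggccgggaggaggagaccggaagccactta
Nqo1: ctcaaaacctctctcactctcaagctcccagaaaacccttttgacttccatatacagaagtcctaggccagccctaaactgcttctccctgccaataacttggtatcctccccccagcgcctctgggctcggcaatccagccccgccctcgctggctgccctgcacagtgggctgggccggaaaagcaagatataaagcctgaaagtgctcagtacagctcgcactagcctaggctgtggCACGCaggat
Ahr: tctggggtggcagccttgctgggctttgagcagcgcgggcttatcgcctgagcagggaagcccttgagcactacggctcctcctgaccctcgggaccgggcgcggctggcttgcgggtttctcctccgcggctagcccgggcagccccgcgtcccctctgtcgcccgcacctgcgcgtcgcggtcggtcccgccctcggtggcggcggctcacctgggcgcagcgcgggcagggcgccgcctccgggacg

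Ahrr held 3 core matches, which began 142, 117 and 57 bases before the gene start. Cyp1b1 held 2, at 81 bases on the other strand and at 20 bases, and Tiparp and Nqo1 held 1 each, at 136 and 10 bases on the other strand. Ahr and Cyp1a2 held 0 in this window. For comparison, 25.9% of 33469 promoter windows of 250 bases in the same table held the core on either strand. The longer form TNGCGTG, which contains the core, was found in Ahrr and Cyp1b1, 1 match each, and in 4.09% of all windows. The letters TGACNNNGC of the antioxidant response element were in 0 of the 6 windows and in 10.1% of all. Sequence farther from the gene start is not covered, so a gene without a match here may have one elsewhere. A match describes the letters and is not a measured binding site.

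**Figure D1:**
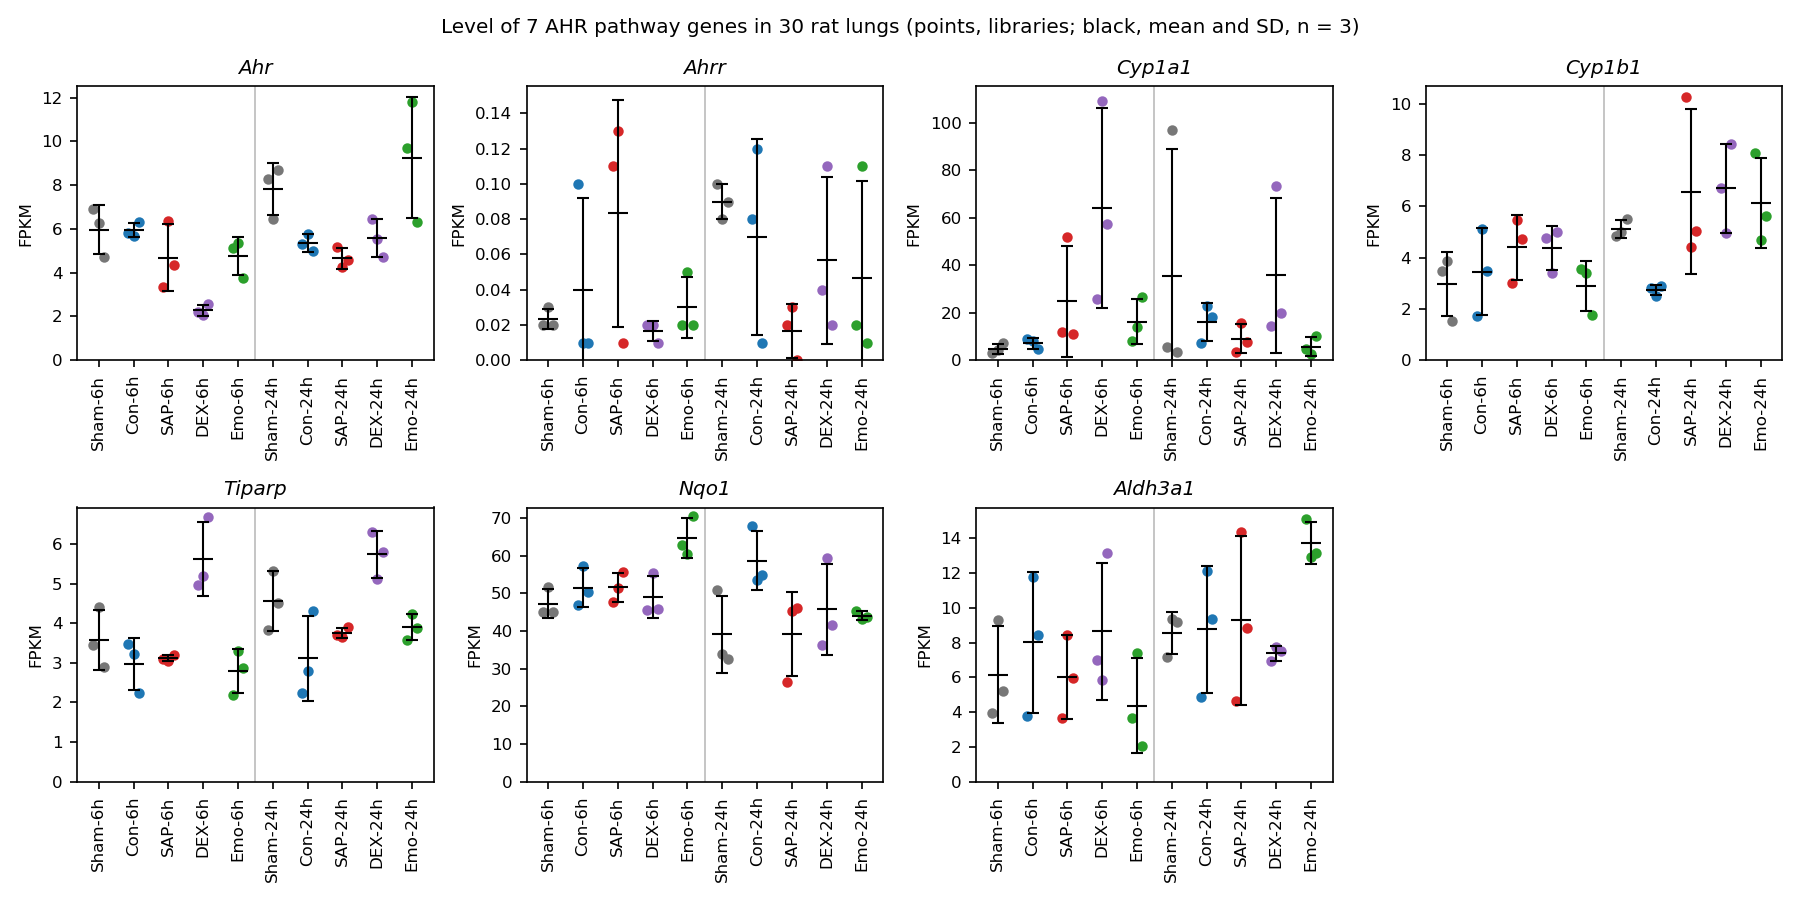
Level of the 7 tested AHR pathway genes in FPKM (linear axis from 0) in each of 30 lung libraries, by group, with 6 h groups left of the grey line and 24 h groups right of it. Points are libraries and black bars the mean and SD (n = 3). The Ahr points of DEX-6h, 2.06 to 2.57, sit below those of every other group, and 1 Sham-24h point of Cyp1a1 stands at 97.1 with its group mates at 5.45 and 3.66.

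Levels are given as FPKM as deposited (fragments per kilobase of gene, scaled to the size of the library), which allow for gene length and can be compared between genes. Nqo1 had the highest median over the 30 libraries, 47.4 FPKM, with a range of 26.4 to 70.6. Cyp1a1 followed with a median of 10.6 and a range of 2.46 to 109, Aldh3a1 with 7.63 (2.08 to 15.1), Ahr with 5.44 (2.06 to 11.8), Cyp1b1 with 4.72 (1.54 to 10.3) and Tiparp with 3.68 (2.20 to 6.69). The repressor Ahrr was near the floor, at 0 to 0.13 FPKM, which came from 0 to 26 reads a library. The liver enzyme Cyp1a2 had 12 reads in Emo-6h replicate 1, 1 read in SAP-24h replicate 2 and 0 in the other 28 libraries.

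These genes also differed in how alike the libraries of a group were. The SD of Cyp1a1 within groups was 1.24 on the log2 scale, above 98.0% of the 15934 tested genes, whose median was 0.275. For Aldh3a1 it was 0.586 and for Cyp1b1 0.485, above 83.2% and 76.4% of the genes, whereas Ahr (0.257), Tiparp (0.251) and Nqo1 (0.228) lay below the median. Cyp1a1 differed up to 26.5-fold between libraries of a group. Replicate 2 was the highest of its group in 6 of 10 groups for Cyp1a1 and in 8 of 10 for Aldh3a1 and 7 of 10 for Ahrr, against 4 of 10 for Ahr, Tiparp and Nqo1 and 3 of 10 for Cyp1b1. What the replicate numbers stand for is not given in the sources used here.

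A gene was called in a comparison at a Benjamini-Hochberg adjusted p under 0.05 and a change of at least 2-fold, from edgeR's quasi-likelihood test fitted to all 30 libraries. In the 19 comparisons of 2 groups and the 2 contrasts of drug effects between times, the tested members gave 8 calls, of which 4 were of Ahr. They fell in 5 comparisons that each involve DEX-6h or the emodin groups at both times. The same libraries stand in several comparisons, so those calls are not separate pieces of evidence. Counts of members at an unadjusted p under 0.05 are given without the share of all tested genes at that p. The shares printed are for the call rule or the adjusted p, which are stricter. Where libraries of 2 groups are said not to overlap, the share of all tested genes that separate likewise is not given either.

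Emodin was the reason to look at this battery, and beside SAP alone it moved none of the 7 tested members past the call rule at either time. At 6 h, 4 of 15934 genes were called (0.0251%), and at 24 h 508 were (3.19%). DESeq2 also called 0 of these members at both times. At an unadjusted p under 0.05 there were 0 members at 6 h and 1, Ahr, at 24 h. The median log2 fold change of the 7 was −0.47 at 6 h and 0.027 at 24 h, beside −0.0048 and 0.015 over all tested genes.

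Cyp1a1, the most inducible of the battery, had 11.8, 51.8 and 11.0 FPKM in SAP-6h and 8.04, 14.03 and 26.6 in Emo-6h. The groups overlapped, with 1 SAP-6h library above all Emo-6h libraries. The log2 fold change of Emo-6h vs SAP-6h was −0.61, with a 95% interval from −2.53 to 1.32 (adjusted p = 0.802), and it was 0.48 without SAP-6h replicate 2. At 24 h, SAP had 3.60, 15.5 and 7.88 FPKM and Emo 4.68, 2.46 and 10.1, again overlapping, and the difference was −0.76 (−2.71 to 1.20, adjusted p = 0.643), and −0.14 without SAP-24h replicate 2. These intervals leave room for a rise of more than 2-fold and for a fall of more than 4-fold, so a change in Cyp1a1 of that size was not detectable here. The intervals were narrower for the members with less spread. For Tiparp they ran from −0.60 to 0.25 at 6 h and from −0.52 to 0.32 at 24 h, and for Nqo1 from −0.06 to 0.69 and from −0.35 to 0.40, so that a 2-fold change in either direction lay outside them.

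Nqo1 was highest in Emo-6h of all groups, at 62.8, 60.5 and 70.6 FPKM, each above the 47.8, 51.4 and 55.6 of SAP-6h and the 45.0, 51.6 and 44.9 of Sham-6h. The difference from SAP-6h was small and did not pass the test (log2 fold change 0.32, SE 0.18, adjusted p = 0.447), and neither did that from Sham-6h (0.49, SE 0.18, adjusted p = 0.110). Of the other NRF2 targets on the list, 0 of 12 passed in Emo-6h vs SAP-6h, beside 0.0314% of tested genes, and 1 had an unadjusted p under 0.05.

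Ahr itself was the member that passed an adjusted p under 0.05 with emodin, at 24 h and below 2-fold. Its levels were 9.68, 11.8 and 6.31 FPKM in Emo-24h and 5.18, 4.24 and 4.56 in SAP-24h, with no overlap. That separation is a description, and the share of all tested genes that separate in this way is not given. In the same libraries the summed level of 5 neutrophil markers was 4255 to 6583 FPKM (Emo-24h) and 4423 to 16278 (SAP-24h), and that of 4 T cell markers 12.6 to 48.3 and 9.73 to 13.4, which overlapped. Sums that did not overlap were those of squamous and basal epithelium (76.8 to 90.7 in Emo-24h and 32.9 to 48.3 in SAP-24h), smooth muscle (414 to 616 and 226 to 376) and B cells (36.8 to 64.9 and 20.01 to 35.0). The part of these lists in the Ahr result was not tested. The log2 fold change was 0.82 (SE 0.20, adjusted p = 0.0173), against 8.59% of all tested genes with an adjusted p under 0.05 in this comparison. Without single libraries the adjusted p ran from 0.00811 to 0.122, and over the other settings from 0.00424 to 0.138. In Sham-24h Ahr stood at 8.27, 6.46 and 8.70, so that SAP-24h lay below Sham-24h (log2 fold change −0.61, SE 0.20, adjusted p = 0.0486), where 12.4% of tested genes passed that p. Sham rats had no duct infusion. In Con-24h, with a saline infusion, Ahr stood at 5.30, 5.77 and 4.97, which overlapped SAP-24h, and SAP-24h vs Con-24h was not tested. In SAP-24h the T cell sum was 9.73 to 13.4, below the 35.2 to 47.6 of Sham-24h. In the same order the sum of squamous and basal epithelium was 32.9 to 48.3 and 103 to 131, that of smooth muscle 226 to 376 and 446 to 657, and that of ciliated cells 301 to 572 and 611 to 724. Club cells were the list that was higher in SAP-24h (37525 to 47318, against 19979 to 36400), and the part of these lists was not tested. Emo-24h did not differ from Sham-24h beyond the spread (0.21, −0.20 to 0.63, adjusted p = 1). In Emo-24h vs Sham-24h, 0% of tested genes were called. The Ahr difference of SAP-24h from Sham-24h passed in 0 of 6 fits that left out 1 library, where its adjusted p was 0.0568 to 0.164.

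**Figure D2:**
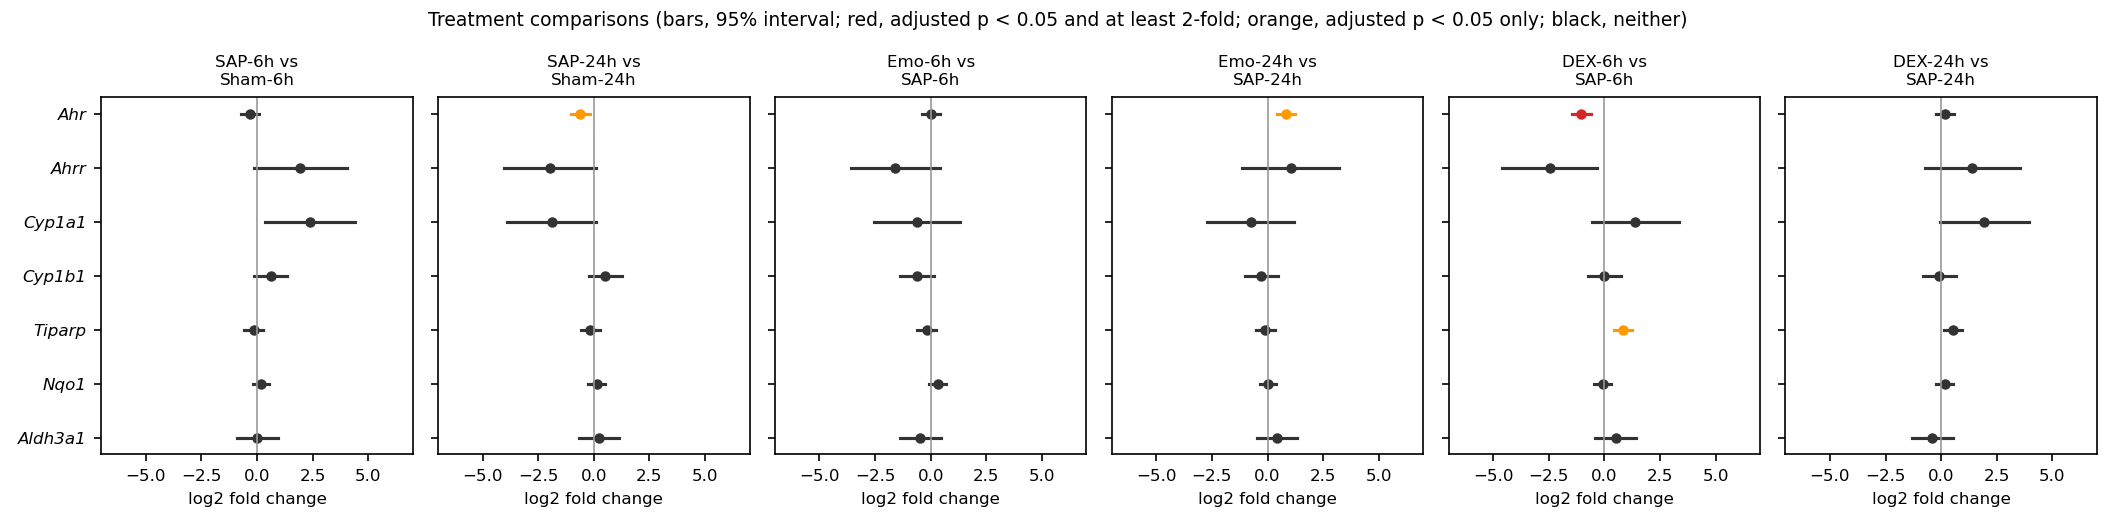
Log2 fold change (x axis) of the 7 tested members in 6 treatment comparisons, 1 per panel, with the 95% interval of the edgeR fit as a line. Red marks adjusted p under 0.05 with at least 2-fold, orange adjusted p alone, black neither. Intervals of Cyp1a1 and Ahrr span several log2 units, and the red point is Ahr in DEX-6h vs SAP-6h at −1.04.

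Dexamethasone, a synthetic glucocorticoid, was the drug with which members moved at 6 h. In DEX-6h vs SAP-6h, Ahr fell past the call rule, 1 of 7 members, where 0.515% of all tested genes were called. The Ahr levels were 2.19, 2.06 and 2.57 FPKM in DEX-6h and 3.35, 6.37 and 4.34 in SAP-6h, with no overlap. The log2 fold change was −1.04 (SE 0.20, adjusted p = 0.0141), a 2.06-fold decrease. Endothelial markers, whose sum ran against Ahr over the 30 libraries (5 of 6 matched, r = −0.667), were at 1389 to 1530 FPKM in DEX-6h, within the 1185 to 1600 of SAP-6h. The sum of 4 macrophage markers was 88.2 to 145 in DEX-6h and 166 to 210 in SAP-6h, and that of 4 T cell markers 22.5 to 34.1 and 34.3 to 42.1, both with no overlap, and their part in the Ahr result was not tested. The call was lost when DEX-6h replicate 1, 2 or 3 or SAP-6h replicate 2 or 3 was left out, with adjusted p of 0.0510 to 0.157 and log2 fold changes of −0.78 to −1.10, and in a fit of the compared groups alone (adjusted p = 0.0703).

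Tiparp, which limits AHR, had 4.97, 5.19 and 6.69 FPKM in DEX-6h and 3.09, 3.06 and 3.21 in SAP-6h. Each DEX-6h library was above each SAP-6h library. The log2 fold change of 0.84 (SE 0.21) passed the adjusted p (0.0481) but was under 2-fold, and 0.979% of tested genes passed an adjusted p of 0.05 there. T cell markers, which ran against Tiparp over the 30 libraries (r = −0.576), summed lower in every DEX-6h library than in any SAP-6h library, as given above, and so did macrophage markers (r = −0.356), and their part was not tested. The difference missed the threshold in all 6 fits without 1 library (adjusted p 0.0648 to 0.221). At 24 h the levels were 6.31, 5.12 and 5.80 in DEX-24h and 3.71, 3.65 and 3.91 in SAP-24h, again apart, with a log2 fold change of 0.52 (SE 0.20, adjusted p = 0.119). Sums that were lower in every DEX-24h library than in any SAP-24h library were those of B cells (5.42 to 11.8 and 20.01 to 35.0 FPKM, r = −0.595 with Tiparp), neutrophils (1010 to 2965 and 4423 to 16278) and club cells (25566 to 36365 and 37525 to 47318). Those of smooth muscle (392 to 532 and 226 to 376), endothelium (946 to 1081 and 882 to 937) and squamous and basal epithelium (80.7 to 171 and 32.9 to 48.3) were higher, and the part of these lists was not tested.

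Cyp1a1 in DEX-6h had 25.9, 109 and 57.5 FPKM, the highest group mean of the 10 groups (64.2 ± 42.0, SD, n = 3). It overlapped with SAP-6h, and the log2 fold change of 1.39 (SE 0.94) had an adjusted p of 0.644. It was 0.75 without DEX-6h replicate 2 and 2.47 without SAP-6h replicate 2. At 24 h it was 14.4, 73.4 and 19.8 in DEX-24h, against 3.60, 15.5 and 7.88 in SAP-24h, and the log2 fold change of 1.94 (SE 0.96) had an adjusted p of 0.229. Without DEX-24h replicate 2 it was 0.84 (adjusted p = 0.692). In DEX-24h vs SAP-24h, 0 of 7 members were called by edgeR and by DESeq2, 1 had an unadjusted p under 0.05 (Tiparp), and 3.73% of tested genes were called.

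Ahrr had 3, 3 and 2 reads in DEX-6h and 16, 26 and 1 in SAP-6h. The groups overlapped, and the log2 fold change of −2.46 (SE 1.04) had an adjusted p of 0.310. In none of the 21 comparisons did Ahrr pass the adjusted p, and its lowest value there was 0.198 (SAP-24h vs Sham-24h).

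Against Sham-6h, which differs from DEX-6h by the duct infusion, taurocholate and the drug, 2 of 7 members were called, beside 3.97% of tested genes. Cyp1a1 was higher in DEX-6h than the 3.09, 4.11 and 7.28 FPKM of Sham-6h, by 13.7-fold (log2 fold change 3.78, SE 1.04, adjusted p = 0.0237). That call was lost without DEX-6h replicate 2 (3.13, adjusted p = 0.0655), Sham-6h replicate 1 (3.53, adjusted p = 0.102) or Sham-6h replicate 2 (3.68, adjusted p = 0.0695). Ahr was lower than the 6.89, 6.27 and 4.72 of Sham-6h, by 2.54-fold (−1.35, SE 0.21, adjusted p = 0.000366), and the call was made in 6 of 6 fits that left out 1 library. The endothelial sum, which ran against Ahr, was 1092 to 1115 FPKM in Sham-6h and 1389 to 1530 in DEX-6h, with no overlap. Its part in the Ahr result was not tested. Tiparp was 1.61-fold higher (0.69, SE 0.20, adjusted p = 0.0335), past the adjusted p (9.75% of genes passed it) and under 2-fold, and its adjusted p rose to 0.149 at most when 1 library was left out.

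The drugs differed from each other in Ahr and Tiparp at 6 h. In Emo-6h vs DEX-6h, 2 of 7 members were called, where 1.41% of tested genes were. Ahr was 5.15, 5.34 and 3.77 FPKM in Emo-6h, all above DEX-6h (log2 fold change 1.06, SE 0.20, adjusted p = 0.00807). Tiparp was 2.20, 3.30 and 2.88 in Emo-6h, all below DEX-6h (−1.01, SE 0.21, adjusted p = 0.0102). Both changes stood close to 2-fold. Ahr fell under 2-fold without DEX-6h replicate 2 or Emo-6h replicate 1 or 2, and missed the adjusted p without DEX-6h replicate 1 (0.0552), while Tiparp lost its call without DEX-6h replicate 3 (adjusted p = 0.0525) or Emo-6h replicate 1 (0.0559) and in a fit of the 2 groups alone (0.0612). Cyp1a1 was lower in Emo-6h by 2.00 on the log2 scale (SE 0.96), which did not pass (adjusted p = 0.286) and was −1.36 without DEX-6h replicate 2.

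At 24 h the drugs were told apart in Ahr by the adjusted p alone (Emo-24h vs DEX-24h, 0.66, SE 0.20, adjusted p = 0.0425, passed by 8.89% of tested genes), and the groups overlapped. That difference passed in 1 of 6 fits without 1 library and its adjusted p reached 0.303, without Emo-24h replicate 2. Sums that did not overlap were those of neutrophils (4255 to 6583 FPKM in Emo-24h and 1010 to 2965 in DEX-24h), T cells (12.6 to 48.3 and 4.76 to 10.8), B cells (36.8 to 64.9 and 5.42 to 11.8) and fibroblasts (265 to 394 and 199 to 235), and their part was not tested. Cyp1a1 was lower in every Emo-24h library (4.68, 2.46 and 10.1 FPKM) than in any DEX-24h library, with a log2 fold change of −2.70 (SE 0.99). It had an adjusted p of 0.0951 by edgeR and 0.0359 by DESeq2, which therefore called 1 member where edgeR called 0. Without DEX-24h replicate 2 the edgeR value was −1.60 (adjusted p = 0.436). Here 3 members had an unadjusted p under 0.05, and 5.06% of all tested genes were called by edgeR and 6.2% by DESeq2.

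In SAP against Sham no member was called at either time. These groups differ by the duct infusion as well as by taurocholate. SAP was not compared with Con, the rats with a saline infusion. In SAP-6h vs Sham-6h, 0.220% of tested genes were called and 0 of 7 members by edgeR or DESeq2. Cyp1a1 was the 1 member with an unadjusted p under 0.05: its 11.8, 51.8 and 11.0 FPKM in SAP-6h all lay above Sham-6h, with a log2 fold change of 2.39 (SE 0.98, adjusted p = 0.283). Without SAP-6h replicate 2 it was 1.31 (adjusted p = 0.628). In SAP-24h vs Sham-24h, 5.00% of genes and 0 members were called by edgeR, and 0 members by DESeq2. Ahr was the 1 member with an unadjusted p under 0.05 there.

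Sham-24h replicate 2, with 97.1 FPKM of Cyp1a1 against 5.45 and 3.66 in its group mates, decided every Cyp1a1 comparison that used Sham-24h. The log2 fold change of SAP-24h vs Sham-24h was −1.90 with it and 1.11 without it, and that of Emo-24h vs Sham-24h −2.65 and 0.35. For DEX-24h vs Sham-24h it was 0.04 with that library, and 3.05 without it (adjusted p = 0.0482), which would be a call. Sham-24h vs Con-24h moved from 1.17 to −1.83, and Sham-24h vs Sham-6h from 2.92 to −0.089. In the same library the summed level of 5 neutrophil markers was 193 FPKM, against 1303 and 9232 in the other Sham-24h libraries, and whether this bears on Cyp1a1 was not tested.

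Between the operated controls no member was called at either time. Sham-6h vs Con-6h had 0 calls among 7 members and among all tested genes (0%), with 0 members at an unadjusted p under 0.05 and 0 by DESeq2. At 24 h 1.00% of tested genes and 0 members were called in Sham-24h vs Con-24h, with 4 members at an unadjusted p under 0.05 and 0 by DESeq2. That 1.00% is for the call rule and is not a share at the unadjusted p. Nqo1 passed the adjusted p below 2-fold. It had 51.0, 33.8 and 32.5 FPKM in Sham-24h and 67.8, 53.4 and 54.8 in Con-24h (log2 fold change −0.60, SE 0.18, adjusted p = 0.0394), where 9.85% of tested genes passed it. It passed in 2 of 6 fits without 1 library (adjusted p 0.0188 to 0.168). The other 3 were higher in Sham-24h and did not pass the adjusted p. Cyp1b1 had 4.83, 4.99 and 5.51 FPKM in Sham-24h and 2.80, 2.52 and 2.90 in Con-24h, with no overlap (0.90, SE 0.37, adjusted p = 0.113). Ahr had 8.27, 6.46 and 8.70 against 5.30, 5.77 and 4.97, also with no overlap (0.54, SE 0.20, adjusted p = 0.0845), and Tiparp overlapped (0.55, SE 0.20, adjusted p = 0.0838). The median log2 fold change of the 7 members was 0.54, beside 0.024 over all tested genes. The endothelial sum was 798 to 1036 FPKM in Sham-24h and 1066 to 1286 in Con-24h, with no overlap. The sums of alveolar type 2 (24185 to 34429 and 37248 to 41938), club (19979 to 36400 and 36466 to 43978) and ciliated cells (611 to 724 and 800 to 860) were also lower in every Sham-24h library, and the part of these lists was not tested.

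**Figure D3:**
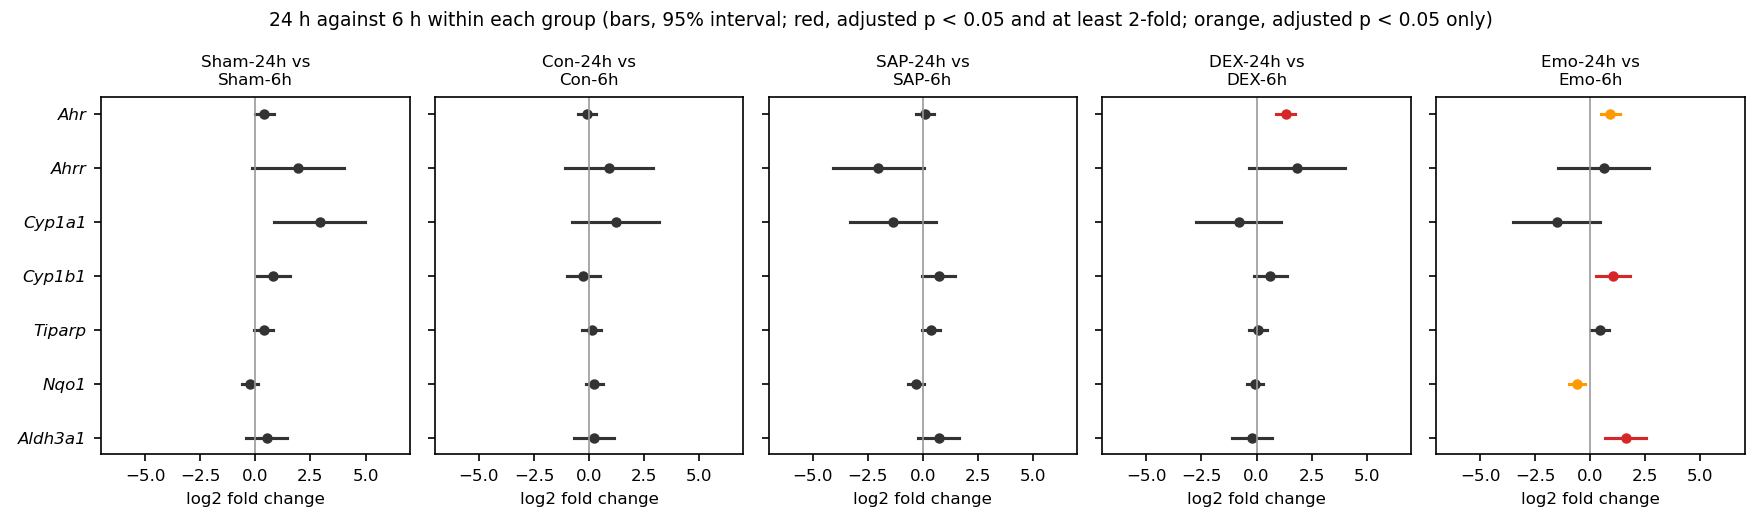
Log2 fold change (x axis) from 6 h to 24 h of the 7 tested members within each of 5 groups, 1 per panel, with the 95% interval as a line. Red marks adjusted p under 0.05 with at least 2-fold, orange adjusted p alone. Ahr rose in the DEX groups by 1.32, and Aldh3a1 and Cyp1b1 rose in the emodin groups by 1.62 and 1.03.

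Between 6 and 24 h, members were called within the drug groups and in none of the other 3. Ahr in the DEX groups went from 2.19, 2.06 and 2.57 FPKM to 6.47, 5.53 and 4.74, a 2.49-fold rise with no overlap (log2 fold change 1.32, SE 0.21, adjusted p = 0.000157). That call was made in 6 of 6 fits without 1 library. Over the same interval the endothelial sum went from 1389 to 1530 FPKM in DEX-6h to 946 to 1081 in DEX-24h, also with no overlap. Lower in every DEX-24h library were also the T cell sum (22.5 to 34.1 in DEX-6h and 4.76 to 10.8 in DEX-24h) and the B cell sum (32.6 to 59.7 and 5.42 to 11.8), and the part of these lists in the Ahr result was not tested. Ahr was 1 of 7 members, beside 7.14% of all tested genes. The DEX effect on Ahr against SAP differed between 24 h and 6 h by 1.21 on the log2 scale (SE 0.29). That contrast had an adjusted p of 0.0786 by edgeR and 0.0121 by DESeq2, and 0.138% of tested genes were called in it by edgeR. It had 2 members with an unadjusted p under 0.05. DESeq2 called 1 member, Ahr, beside 1.37% of the genes it tested. The edgeR count of 22 genes was 2 in a fit of the compared groups alone and 0 without SAP-6h replicate 2, and 47 without SAP-24h replicate 2.

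In the emodin groups 2 of 7 members were called between times, beside 9.41% of tested genes, which was the highest background of the 21 comparisons. Aldh3a1, which oxidises aldehydes, went from 3.67, 7.38 and 2.08 FPKM in Emo-6h to 15.1, 12.9 and 13.2 in Emo-24h. The rise was 3.07-fold (log2 fold change 1.62, SE 0.45, adjusted p = 0.00821), and it was 1.27 (adjusted p = 0.0522) without Emo-6h replicate 3. Cyp1b1 went from 3.54, 3.40 and 1.78 to 8.09, 4.70 and 5.62, a 2.05-fold rise (1.03, SE 0.37, adjusted p = 0.0324). It lost its call without Emo-24h replicate 1 (0.81, adjusted p = 0.133) or replicate 3 (1.04, adjusted p = 0.0640), or Emo-6h replicate 3 (0.76, adjusted p = 0.157). The neutrophil sum, which ran with Cyp1b1 over the 30 libraries (r = 0.535), was 1301 to 3734 FPKM in Emo-6h and 4255 to 6583 in Emo-24h, with no overlap. The alveolar type 1 sum, which ran against Cyp1b1 (r = −0.697), was 2511 to 2856 and 1570 to 2355, also with no overlap. The part of these sums in the Cyp1b1 result was not tested. Ahr rose by 0.91 (SE 0.20, adjusted p = 0.00156) and Nqo1 fell by 0.60 (SE 0.18, adjusted p = 0.0144), from 62.8, 60.5 and 70.6 FPKM to 45.3, 43.2 and 43.8. Both were under 2-fold with all libraries and passed the adjusted p in 6 of 6 fits without 1 library, and 34.1% of tested genes passed the adjusted p there. Without Emo-24h replicate 3 the Ahr rise was 1.09 (adjusted p = 0.000772), which would be a call. The endothelial sum was 1130 to 1697 FPKM in Emo-6h and 780 to 957 in Emo-24h, with no overlap. Smooth muscle (689 to 896 and 414 to 616) and adipocyte sums (5.61 to 9.04 and 11.6 to 28.1, r = 0.376 with Aldh3a1) did not overlap either, and the part of these lists was not tested.

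Whether emodin changed these genes differently at the 2 times was tested as the contrast of its effects against SAP. No member passed: 0 were called by edgeR and by DESeq2, 1 had an unadjusted p under 0.05 (Ahr, 0.81, SE 0.28, adjusted p = 0.0937), and 1.68% of tested genes were called. That background of 268 genes was 2 in a fit of the 4 compared groups alone, 1 without SAP-6h replicate 2 and 3 without Emo-6h replicate 1. Within the groups without a drug the counts were also 0. In Sham-24h vs Sham-6h edgeR called 0 members (0.257% of genes), and 2 had an unadjusted p under 0.05. DESeq2 called 1 there (Cyp1a1, adjusted p = 0.0376), beside 1.22% of the genes it tested. That comparison rested on Sham-24h replicate 2 as given above. In Con-24h vs Con-6h (0.00628% of genes) and SAP-24h vs SAP-6h (2.42%), edgeR and DESeq2 called 0, and 0 had an unadjusted p under 0.05.

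The remaining comparisons with Sham called no member. In Emo-6h vs Sham-6h (0.477% of genes called), Cyp1a1 was 8.04, 14.03 and 26.6 FPKM and above each Sham-6h library, with a log2 fold change of 1.78 (SE 0.97, adjusted p = 0.275), and 1.22 (adjusted p = 0.550) without Emo-6h replicate 3. In DEX-24h vs Sham-24h (4.15%) no member passed the adjusted p, and in each of these and in Emo-24h vs Sham-24h 1 member had an unadjusted p under 0.05. DESeq2 called 0 in all of these.

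Ordered by group mean, Ahr ran from 9.26 ± 2.77 FPKM in Emo-24h through 7.81 ± 1.19 in Sham-24h, 5.96 ± 1.12 in Sham-6h, 5.95 ± 0.321 in Con-6h, 5.58 ± 0.866 in DEX-24h, 5.35 ± 0.402 in Con-24h, 4.75 ± 0.857 in Emo-6h, 4.69 ± 1.54 in SAP-6h and 4.66 ± 0.478 in SAP-24h to 2.27 ± 0.265 in DEX-6h (SD, n = 3). The libraries of neighbours in that order overlapped, except SAP-24h and DEX-6h at its lower end. For the other 7 genes all 9 pairs of neighbours overlapped. Cyp1a1 fell from 64.2 ± 42.0 in DEX-6h over 35.8 ± 32.6 in DEX-24h, 35.4 ± 53.4 in Sham-24h, 24.9 ± 23.3 in SAP-6h, 16.2 ± 9.45 in Emo-6h, 15.98 ± 8.05 in Con-24h, 9.01 ± 6.05 in SAP-24h, 7.19 ± 2.34 in Con-6h and 5.75 ± 3.94 in Emo-24h to 4.83 ± 2.19 in Sham-6h.

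Tiparp was highest in both DEX groups, 5.74 ± 0.597 FPKM at 24 h and 5.62 ± 0.936 at 6 h, and lowest in Emo-6h at 2.79 ± 0.555. Nqo1 ranged from 64.6 ± 5.30 in Emo-6h to 39.1 ± 10.3 in Sham-24h. Aldh3a1 ranged from 13.7 ± 1.19 in Emo-24h to 4.38 ± 2.72 in Emo-6h. Cyp1b1 ranged from 6.69 ± 1.73 in DEX-24h to 2.74 ± 0.197 in Con-24h, whose 2.80, 2.52 and 2.90 were close together. The single highest Cyp1b1 value, 10.3, and the lowest Nqo1 value, 26.4, came from the same library, SAP-24h replicate 1.

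**Figure D4:**
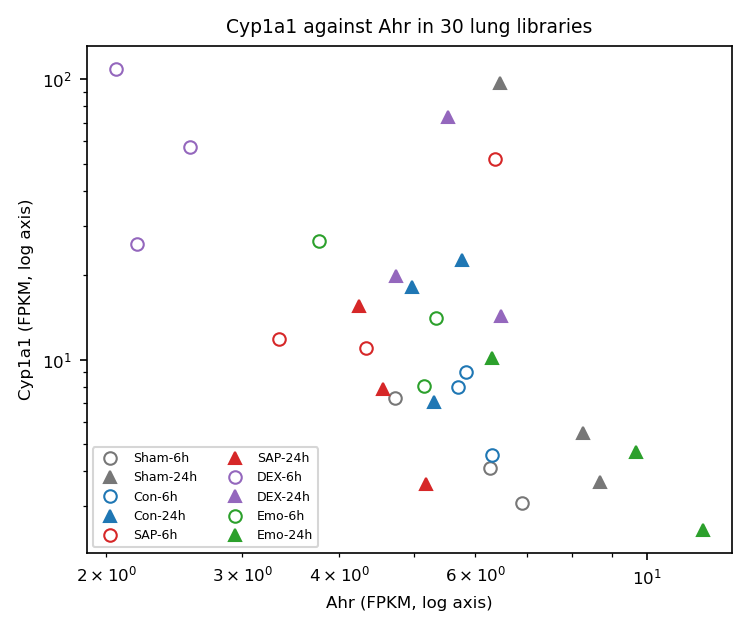
Cyp1a1 against Ahr, both in FPKM on log axes, in 30 lung libraries. Colours are treatments, open circles 6 h and filled triangles 24 h. The 3 DEX-6h libraries lie at the upper left, at 2.06 to 2.57 FPKM of Ahr and 25.9 to 109 of Cyp1a1.

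Across the 30 libraries the receptor and its best known target ran in opposite directions (log2 CPM; Pearson r = −0.591, Spearman rho = −0.551). The permutation p values, over libraries and two-sided, were 0.000600 and 0.00207, and 0.0105 and 0.0138 after adjustment over the 21 pairs of tested members. The permutation ignores that libraries share groups. Without the 2 libraries farthest from the median of Ahr r was −0.490, within the 15 libraries at 6 h it was −0.736 and at 24 h −0.524. It was −0.668 in the 18 taurocholate libraries and −0.237 in the 12 Sham and Con libraries, and −0.361 once group means were removed. Cyp1b1 and Nqo1 also ran in opposite directions (r = −0.569, rho = −0.560, permutation p = 0.00100 and 0.00167, adjusted 0.0105 and 0.0138), with −0.124 at 6 h, −0.700 at 24 h and −0.390 after removal of group means, and −0.728 without the 2 libraries farthest from the median of Cyp1b1. Tiparp and Nqo1 did so too (r = −0.498, rho = −0.534, adjusted permutation p = 0.0275 and 0.0138), with −0.329 at 6 h, −0.533 at 24 h and −0.380 after removal of group means, and −0.533 without the 2 libraries farthest from the median of Tiparp. Other members ran together. For Cyp1b1 and Tiparp r was 0.497 and rho 0.580 (adjusted permutation p = 0.0275 and 0.0138), with 0.280 at 6 h, 0.561 at 24 h, 0.501 without the 2 libraries farthest from the median of Cyp1b1 and 0.017 once group means were removed. For Cyp1b1 and Aldh3a1 r was 0.467 and rho 0.432 (adjusted permutation p = 0.0409 and 0.0630), with 0.665 at 6 h, −0.137 at 24 h, 0.391 without those 2 libraries and 0.296 after removal of group means. The adjusted p was above 0.05 by both measures for the other 16 of the 21 pairs.

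The genes whose pattern was most like each member were named by Pearson r over the same 30 libraries, as a description. For Cyp1a1 these were Sec14l2 (r = 0.818), Smim3 (0.796), Tmem52 (0.777), Ddit4 (0.767) and Cytl1 (0.764), and no member of the battery was among them. For Ahr they were Zeb2 (0.912), Cdc42ep3 (0.887) and Arhgap20 (0.885), and for Tiparp Ccng1 (0.931), Mgat4a (0.917) and Usp53 (0.897). Cyp1b1 had F13a1 (0.860), Hipk1 (0.843) and Elf2 (0.826), Nqo1 had Cdk5rap3 (0.771), Slc10a3 (0.769) and Dhps (0.765), and Aldh3a1 had Fmo6 (0.773), Pcnxl4 (0.755) and Tbc1d32 (0.735). For Ahrr, on its few reads, r was at most 0.623 (Fam221a), followed by RGD1306001 (0.599) and Ftcd (0.582).

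The partners that hold or accompany AHR were followed as a list of 11 genes, all tested. By edgeR 0 of them were called in Emo-6h vs SAP-6h, Emo-24h vs SAP-24h and DEX-6h vs SAP-6h. Beside this, 0.0251%, 3.19% and 0.515% of tested genes were called. In the same order 1, 6 and 1 of the list had an unadjusted p under 0.05, and no share of all genes at that p is given here. Arnt, the obligate partner, had group means between 8.69 FPKM (DEX-24h) and 11.5 (Emo-6h). Hsp90ab1, a chaperone of AHR, rose in SAP-24h vs Sham-24h (1.14, SE 0.38, adjusted p = 0.0499) and fell in DEX-24h vs SAP-24h (−1.40, SE 0.38, adjusted p = 0.0267), 1 of 11 in each, beside 5.00% and 3.73% of tested genes called. Its SAP-24h levels were 1943, 477 and 758 FPKM, so that replicate 1 stood apart from its group. Between SAP-6h and SAP-24h, where 2.42% of tested genes were called, 2 of the 11 rose, the clock gene Arntl (1.93, SE 0.51, adjusted p = 0.0293) and Ptges3, which encodes p23 (1.07, SE 0.27, adjusted p = 0.0217).

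Of 14 other genes of the AHR battery, 13 were matched and 10 tested. In Emo-6h vs SAP-6h 0 were called, beside 0.0251% of tested genes, and 0 had an unadjusted p under 0.05. In Emo-24h vs SAP-24h 1 fell, Ereg, which encodes the growth factor epiregulin (−2.14, SE 0.62, adjusted p = 0.0365), at 0.06 to 0.38 FPKM in Emo-24h and 0.37 to 1.67 in SAP-24h, beside 3.19% of tested genes called. Slc7a5, an amino acid transporter, rose in Emo-6h vs Sham-6h (1.30, SE 0.34, adjusted p = 0.0397), beside 0.477% of tested genes called, and in DEX-6h vs Sham-6h (1.11, SE 0.34, adjusted p = 0.0394), beside 3.97%, and was the 1 of 10 in each. The median log2 fold change of the list was −0.04 in Emo-6h vs SAP-6h and −0.11 in Emo-24h vs SAP-24h, beside −0.0048 and 0.015 over all tested genes. Lrat, a retinol acyltransferase, fell in DEX-24h vs SAP-24h (−1.42, SE 0.44, adjusted p = 0.0486), 1 of 10 beside 3.73% of tested genes.

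Of 10 enzymes that make or break down tryptophan-derived AHR ligands, 8 were tested, and 0 were called with emodin or DEX against SAP at either time. The shares of all tested genes called were 0.0251% (Emo-6h), 3.19% (Emo-24h), 0.515% (DEX-6h) and 3.73% (DEX-24h). At most 3 of the 8 had an unadjusted p under 0.05 in each of these comparisons. In Emo-24h vs DEX-24h 3 of 8 were called, beside 5.06% of all tested genes: Tdo2, tryptophan dioxygenase, was lower (−3.39, SE 0.91, adjusted p = 0.0221), and Kynu, kynureninase (2.43, SE 0.70, adjusted p = 0.0314), and Il4i1, an amino acid oxidase (1.53, SE 0.46, adjusted p = 0.0378), were higher. Tdo2 was at 0.39, 0.30 and 0.43 FPKM with DEX at 24 h, and at 0, 0.02 and 0.09 with emodin. The neutrophil, T cell, B cell and fibroblast sums given above were higher in every Emo-24h library than in any DEX-24h library. Their part in these enzyme results was not tested. Of 7 other cytochromes P450 and their partners, all tested, 1 was called in DEX-6h vs SAP-6h (0.515% of all tested genes) and 2 in DEX-24h vs SAP-24h (3.73%), and all fell. Cyp4b1, which oxidises fatty acids and other substrates in lung, fell at 24 h (−1.15, SE 0.21, adjusted p = 0.00214), where the club cell, neutrophil and B cell sums given above were also lower in every DEX-24h library, and their part was not tested. Cyp26b1, which breaks down retinoic acid, fell at 6 h (−3.18, SE 0.67, adjusted p = 0.0230) and 24 h (−3.56, SE 0.68, adjusted p = 0.00268), from 4.43, 13.4 and 17.8 FPKM in SAP-6h to 1.47, 1.19 and 1.23 in DEX-6h, and from 23.4, 3.43 and 3.39 in SAP-24h to 0.92, 1.11 and 0.80 in DEX-24h.

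Among 12 tested NRF2 targets beside Nqo1, Hmox1, heme oxygenase, rose in SAP-24h vs Sham-24h (1.18, SE 0.31, adjusted p = 0.0170), 1 of 12 beside 5.00% of tested genes called, with 81.8, 27.6 and 35.3 FPKM in SAP-24h and 24.8, 19.7 and 26.8 in Sham-24h. As a check of the drug, 7 tested glucocorticoid receptor targets were followed. For Cdkn1a on that list the study had already reported a further rise with DEX in these samples, so it is not a separate check. Sgk1, a kinase, rose in DEX-6h vs SAP-6h (1.02, SE 0.20, adjusted p = 0.0158) and DEX-24h vs SAP-24h (1.92, SE 0.21, adjusted p = 2.2e-05), the 1 called gene of that list in each, beside 0.515% and 3.73% of tested genes. In DEX-6h vs Sham-6h (3.97% of tested genes called) 3 of 7 rose, Cdkn1a (2.03, SE 0.47, adjusted p = 0.00866), Fkbp5 (2.01, SE 0.44, adjusted p = 0.00609) and Per1 (1.01, SE 0.20, adjusted p = 0.00290), and in Emo-24h vs DEX-24h (5.06%) 5 of 7 were lower. In Emo-6h vs SAP-6h 0 of the 7 were called (0 at an unadjusted p under 0.05), beside 0.0251% of tested genes. In Emo-24h vs SAP-24h 1 was, Cdkn1a, which fell (−1.72, SE 0.46, adjusted p = 0.0262), beside 3.19% of tested genes.

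Reads on genes numbered 16813949 to 34692306 per library, lowest in SAP-6h replicate 3. Per the study's sequencing summary, that library had more uniquely mapped reads than SAP-6h replicate 1. Why fewer of its reads were counted on genes is not given. Defining lung markers were high in every library: the summed level was 24185 to 46543 FPKM for 6 alveolar type 2 genes and 17225 to 47318 for 6 club cell genes. Cell type markers also moved with groups. The 5 alveolar type 1 markers ran against Cyp1b1 (r = −0.697), with sums of 2511 to 2856 in Emo-6h and 1570 to 2355 in Emo-24h, and 4 B cell markers ran against Tiparp (r = −0.595). The neutrophil sum was 1010 to 2965 in DEX-24h, and its r with Cyp1a1 was −0.383. The sum of 5 heart muscle markers was 6.17 to 191 over all libraries and had r = 0.408 with Aldh3a1, at 14.8 to 103 in Emo-6h and 79.9 to 177 in Emo-24h. The part of these in the member results was not tested. No liver cell sum is set beside a result, since Alb, Ttr and Apoa1 were at most 0.95, 0.51 and 1.12 FPKM in 29 libraries and the rest of that sum was Serpina1 (4.08 to 42.0). Per the study's sequencing summary, the share of unique reads was lower in taurocholate than in Sham and Con libraries and, among the taurocholate groups, highest in Emo-24h, and at 24 h it was higher in DEX-24h than in SAP-24h. Its part cannot be told apart from that of taurocholate, and in the Emo-24h and DEX-24h results it was not tested.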

How the data were processed

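Gene expression was measured by paired-end RNA-seq of polyadenylated RNA in 30 rat lung libraries. Per the study's methods, the authors trimmed reads with FASTX-Toolkit, mapped them with TopHat2 to rat_ensembl_v6 with 2 mismatches and discarded reads that mapped to several places. The authors deposited raw counts for 22914 genes and FPKM values, rounded to 2 decimals, for 22907. The counting program and its strand setting are not given in the sources used here, and the submitters' processing notes name bcl2fastq, TopHat2 and edgeR.

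Counts were tested with edgeR 4.0.16 in R 4.3.3: filterByExpr (minimum count 10), TMM scaling, a quasi-likelihood model of 10 groups and Benjamini-Hochberg adjustment over 15934 genes. FPKM served for levels. Pairs of libraries of a group differed by 35.4 to 197 times the counting variance, so none was a duplicate. Correlations used TMM log2 CPM with a prior count of 2 and 100000 permutations (Python 3.11.15, numpy 2.4.6, scipy 1.17.1, pandas 2.3.3), and figures matplotlib 3.10.9.

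All 8 members are named in the text. The rule for list genes allowed at most the 3 called genes of largest change per list and comparison, or the 2 of lowest p where none was called, and the text names only some of these. Like genes are the 5 of highest r for Cyp1a1 and 3 for each other member. Of the lists, Ugt1a6, Pgd and Tsc22d3 and the markers Foxj1, Pecam1 and Trp63 were not matched. The values of 1 listed gene are not reported here. The members and lists were chosen with earlier results of these data known. Alternatives were RLE scaling, DESeq2 1.42.0, other filters, the compared groups alone, a replicate block, the adjusted p alone and each library left out. On simulated data for Emo-24h vs SAP-24h (15934 genes), 92 of 100 genes changed 4-fold and 45 of 100 changed 2-fold were called, with 0 unchanged genes. Apart from the changed genes, simulated counts had the same mean in every group, so other shifts between groups were not modelled. The shares are over all changed genes and do not apply to Cyp1a1, whose spread within groups was above 98.0% of tested genes.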

Additional observations from a re-analysis of the deposited data

Results flagged for a closer look

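Cyp1a2, the CYP1 enzyme of liver, was outside the tested genes and had 12 reads in Emo-6h replicate 1, above the 0 reads of every Sham and Con library. This signal was noted because it lies in a gene that no comparison used. SAP-24h replicate 2 had 1 read and the other 28 libraries 0. In Emo-6h replicate 1 the liver genes Alb and Ttr were at 6.42 and 4.89 FPKM, against at most 0.95 and 0.51 in the other 29 libraries, Apoa1 was at 1.61 against at most 1.12, and Serpina1 was at 18.8 within the 4.08 to 42.0 of the others. Their part in the Cyp1a2 reads was not tested.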

How the results depend on the processing

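No called member change turned its direction in any alternative. With the adjusted p alone as the rule, the count of called members moved from 0 to 1 in SAP-24h vs Sham-24h, Emo-24h vs SAP-24h, Emo-24h vs DEX-24h and Sham-24h vs Con-24h, from 1 to 2 in DEX-6h vs SAP-6h and from 2 to 4 in Emo-24h vs Emo-6h. In DEX-6h vs Sham-6h that rule added Tiparp to the 2 called members. With the compared groups alone it was 0 in DEX-6h vs SAP-6h and 1 in Emo-6h vs DEX-6h, where fewer libraries set the spread. DESeq2 gave 1 in Emo-24h vs DEX-24h, 1 in Sham-24h vs Sham-6h and 1 in the DEX contrast between times. With 1 library left out the counts ran from 0 to 1 in DEX-6h vs SAP-6h, 0 to 2 in Emo-6h vs DEX-6h, 1 to 2 in DEX-6h vs Sham-6h, 0 to 1 in DEX-24h vs Sham-24h and 0 to 2 in Emo-24h vs Emo-6h. RLE scaling and the other filters left every count within 1.5 times, and RLE scaling moved the median of all genes by at most 0.0317. Left-out libraries moved the log2 fold change of Cyp1a1 between −2.53 and 1.11 (SAP-24h vs Sham-24h), −3.42 and 0.35 (Emo-24h vs Sham-24h), −1.83 and 1.70 (Sham-24h vs Con-24h) and −0.089 and 3.46 (Sham-24h vs Sham-6h), with the changed sign in each case without Sham-24h replicate 2. They moved that of Cyp1b1 in SAP-24h vs Sham-24h between −0.024 (without SAP-24h replicate 1) and 0.77. None of these 5 was called, and 78 further sign changes, of 1814 refits, were in values below their own SE.

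Same-numbered replicates did not deviate together: in 1 of 19 comparisons every pair had r above 0.1, and r was 0.0211 at the median. In that comparison, DEX-24h vs DEX-6h, every library was also closest to its own number. With the replicate block the counts of called members were the same in all 21 comparisons, such as 1 in DEX-6h vs SAP-6h and 2 in Emo-6h vs DEX-6h. Of the 5 genes most like Cyp1a1, 4 were shared with Spearman rho and 5 with a prior count of 0.5. Counts of calls over all genes moved more: with the compared groups alone from 508 to 0 in Emo-24h vs SAP-24h, from 4 to 0 in Emo-6h vs SAP-6h, from 796 to 3 in SAP-24h vs Sham-24h, from 594 to 221 in DEX-24h vs SAP-24h, from 633 to 352 in DEX-6h vs Sham-6h and from 225 to 89 in Emo-6h vs DEX-6h, and by DESeq2 from 4 to 25 in Emo-6h vs SAP-6h, from 82 to 151 in DEX-6h vs SAP-6h and from 225 to 385 in Emo-6h vs DEX-6h. The compared groups alone gave 0, from 35 in SAP-6h vs Sham-6h, from 76 in Emo-6h vs Sham-6h and from 160 in Sham-24h vs Con-24h. SAP-24h vs SAP-6h moved from 386 to 177 there. DESeq2 gave 191 in SAP-6h vs Sham-6h and 108, from 1, in Con-24h vs Con-6h. With 1 library left out the count ran from 136 to 521 in Emo-24h vs SAP-24h. It ran from 6 to 90 in DEX-6h vs SAP-6h and from 45 to 277 in Emo-6h vs DEX-6h. Ahrr had at most 26 reads a library and Cyp1a2 at most 12. The SD within groups was 1.02 for Ahrr and 1.24 for Cyp1a1 on the log2 scale, above 96.4% and 98.0% of tested genes. The part of depth in these was not tested.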
